A study of Mus with 2 samples.

Results

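The immunoglobulin and plasma cell genes described here are 8 of the 32285 genes counted in both tumor sections. They are the kappa light chain constant gene Igkc, the IgG heavy chain genes Ighg2b, Ighg2c and Ighg1, the IgM heavy chain gene Ighm, and 3 genes of antibody-making cells, Jchain, Mzb1 and Pou2af1. They were chosen by their symbols, and the set was selected on earlier readouts of these same sections, in which several of them differed most between the groups. All values below are therefore a description and carry no test. Expression was mapped by Visium, a slide printed with barcoded spots that bind RNA released from the section above them. A unique molecular identifier (UMI) lets each bound molecule be counted once. Most spots lie under more than 1 cell, and these cells need not be of the same type.

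Both sections came from BALB/c mice, 6 to 8 weeks old, that carried a subcutaneous tumor of CT26, a mouse colon carcinoma cell line. The control mouse received PBS. The rIL7 mouse received 10 µg of recombinant mouse interleukin 7 intraperitoneally on days 11 and 13 after transplantation. The tumors were taken on day 15 and cut at 10 µm. There was 1 section per group, so nothing below separates the treatment from the animal, the piece of tissue or the library, and intervals cover counting error only.

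An antibody consists of a pair of heavy chains and a pair of light chains. A B cell first makes IgM from Ighm, and class switching moves the same variable region onto another constant gene, such as the IgG genes. After activation a B cell can become a plasmablast or plasma cell, which transcribes its heavy and light chain genes at very high levels and secretes the product. In tumors such cells are often found in the stroma, the margin and lymphoid aggregates. IL-7, the cytokine given here, acts on lymphocyte precursors and T cells. Mature mouse B cells largely lack its receptor.

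In the gene annotation of the mouse build used for counting (GRCm38), Igkc lies on chromosome 6 from 70726435 to 70726754. The heavy chain genes form a cluster on chromosome 12, in which Ighm starts at 113418826, Ighg1 at 113326541, Ighg2b at 113304314 and Ighg2c at 113287389. Jchain, whose product joins IgM and IgA into polymers, lies on chromosome 5 from 88519809 to 88527897. Pou2af1, a coactivator of immunoglobulin gene transcription in B cells, lies on chromosome 9 from 51213690 to 51240079. Mzb1 encodes a chaperone of the endoplasmic reticulum that helps to assemble and secrete antibody. The IgG genes are similar in sequence, so a read can be assigned to a neighbour. BALB/c mice carry the IgG2a gene where the C57BL/6 reference has Ighg2c, and the counted features include no Ighg2a. The UMIs called Ighg2c below are those that the reference assigned to that name.

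After filtering, 2219 control spots held 22951678 UMIs and 1950 rIL7 spots held 25729233 UMIs, with medians of 9623 and 12921.5 UMIs per spot. Levels are given as UMIs per 1000000 UMIs of the section or region (CPM). The method tags the 3′ end of a transcript, so levels were not divided by gene length. The distance of a spot from the tissue outline was counted in steps on the hexagonal array. Steps 1 and 2 are called the rim (401 control and 330 rIL7 spots) and the rest of the main piece the interior (1806 and 1599 spots). A further 12 control and 21 rIL7 spots were detached from the main piece.

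Between the sections, the light chain gene and the IgG genes differed by far more than counting error, whereas Ighm did not. Igkc had 37 control and 3228 rIL7 UMIs, or 1.61 against 125.5 CPM. The ratio was 77.8-fold, with a 95% counting interval of 56.3 to 111. Igkc alone made up 45.2% of the UMIs of the 8 genes in the rIL7 section. In a spatial library, fewer cells of a type and less RNA per cell cannot be told apart.

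The IgG heavy chain genes were nearly absent from the control section apart from Ighg2b. Ighg2b had 42 control and 1123 rIL7 UMIs, a ratio of 23.9 (17.5 to 33.3). Ighg2c had 2 UMIs against 1078, a ratio of 481 with an interval of 133 to 3975. Ighg1 had 1 UMI against 674, a ratio of 601 with an interval of 107.5 to 23780. The width of the last pair of intervals reflects the 1 or 2 control UMIs in the denominator. Ighg3, an IgG gene outside the 8, had 1 UMI against 290. Igha, the IgA heavy chain, had 14 against 18 UMIs, Ighd had 8 against 14, and Ighe had 1 in each section, so the difference was not seen for every heavy chain.

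Ighm was the exception among the 8. It had 558 control and 699 rIL7 UMIs, or 24.3 and 27.2 CPM, a ratio of 1.12 whose interval of 0.998 to 1.25 includes 1. It made up 84.2% of the UMIs of the 8 genes in the control section. A summed level of the 8 genes was therefore mostly Ighm in 1 section and mostly Igkc and IgG in the other. The sum was 663 against 7134 UMIs, a ratio of 9.60 (8.86 to 10.4). Without Ighm it was 105 against 6435 UMIs, a ratio of 54.7 (45.1 to 67.0).

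The genes of antibody-making cells had few UMIs but lay on the same side. Jchain had 13 control and 265 rIL7 UMIs, a ratio of 18.2 (10.4 to 34.6). Mzb1 had 8 against 53, a ratio of 5.91 (2.79 to 14.4). Pou2af1 had 2 against 14, a ratio of 6.24 with an interval of 1.43 to 56.6. For the rarer genes the size of the difference was thus known only within wide limits.

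Each section was also cut into 4 quadrants by median array row and column. Summed over the 8 genes, the control quadrants had 18.6, 19.4, 34.7 and 42.9 CPM and the rIL7 quadrants 114.8, 202, 212 and 551 CPM. Ighm overlapped, with 17.2 to 31.4 CPM in the control quadrants and 15.7 to 33.9 CPM in the rIL7 quadrants, and so did Pou2af1. Quadrants are parts of 1 section and not replicates. Of the 8 genes, 4 had a mean of at least 20 CPM over the sections, and 3 of these (Igkc, Ighg2b and Ighg2c) were at least 2-fold higher in the rIL7 section, beside 0.828% of the 7613 genes with that mean. The set was chosen on this contrast, so nothing is read from that count or from the quadrants.

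**Figure D1:**
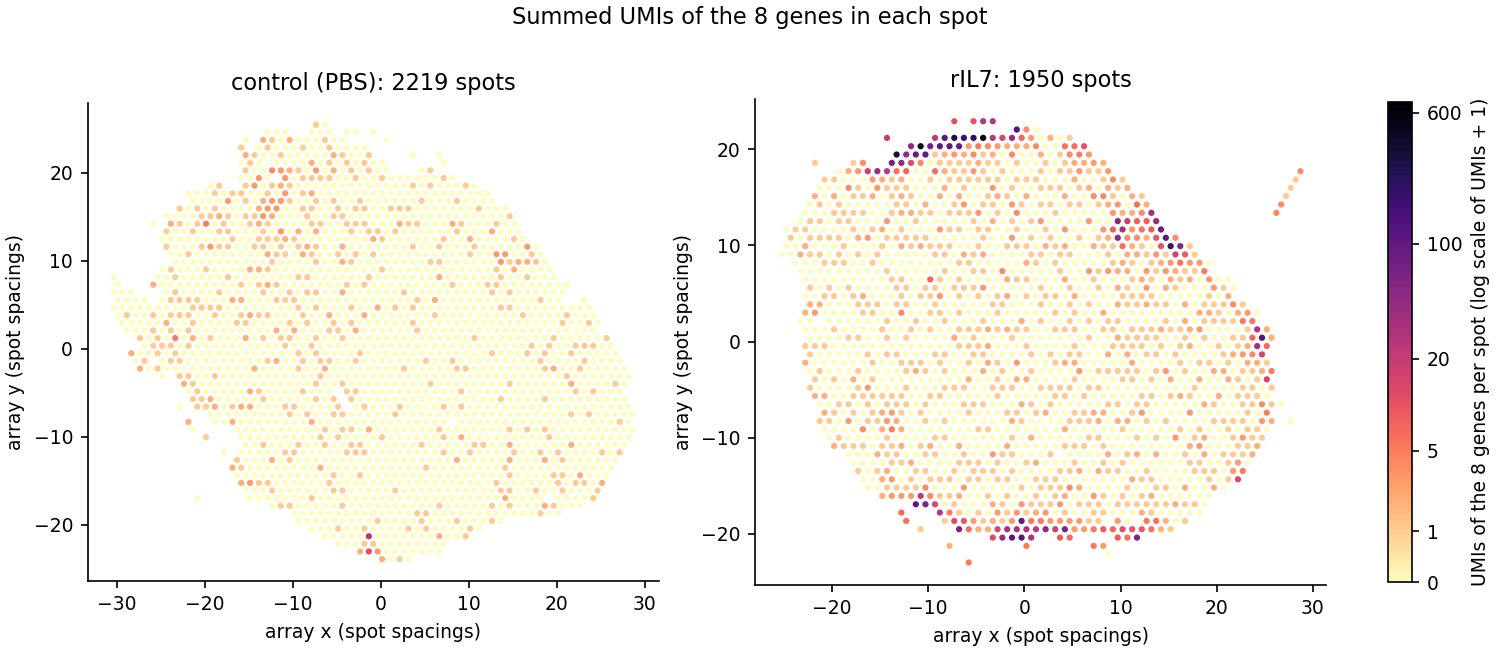
UMIs of the 8 genes summed in each spot, drawn at the spot's place on the array (axes in spot spacings, color on a log scale of UMIs + 1), for the control section (left) and the rIL7 section (right). In the rIL7 section the highest spots lie in patches along the outline, up to 619 UMIs, whereas the control section reaches 25 UMIs in 1 spot.

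The plot of summed UMIs on the array showed that the rIL7 UMIs lay along the tissue outline. In the rIL7 section 79.5% of the UMIs of the 8 genes were in the rim, which held 15.2% of all UMIs. The summed level was 1445 CPM at the rim and 61.2 CPM in the interior, a ratio of 23.6 (22.2 to 25.1). In the control section it was 31.5 and 28.2 CPM, a ratio of 1.12 (0.921 to 1.35), but that sum was mostly Ighm. Without Ighm the control ratio was 1.77 (1.12 to 2.73), with 31 UMIs at the rim and 72 in the interior. Igkc had 14 and 21 control UMIs there (2.74-fold, 1.29 to 5.65) and Ighg2b 15 and 27 (2.29-fold, 1.13 to 4.45). The log2 ratio of rim to interior in the rIL7 section, 4.56 with all spots, was 3.63 without the 10 spots richest in these genes and 3.73 without the richest 30-degree sector of the outline (sector 12, described below).

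Among those of the 8 genes with rIL7 UMIs in both regions, Ighg2c and Ighg1 had the highest rim over interior ratios, and Ighg3, outside the 8, had 262 and 28 UMIs (51.6-fold, 34.9 to 79.1). Ighg2c had 239 CPM at the rim and 5.36 in the interior (44.6-fold, 36.7 to 54.5). Ighg1 had 149.9 and 3.61 CPM (41.6-fold, 32.8 to 53.3). Jchain had 56.3 and 1.62 CPM (34.8-fold, 24.3 to 51.2), nearly the ratio of Igkc with 695 and 20.3 CPM (34.2-fold, 30.9 to 38.0). The intervals of these 4 genes overlap in part, so they do not settle the order. Ighg1 moved with the rim width, with a log2 ratio of 3.29 for a rim of 1 step against 5.38. Without sector 12 the log2 ratio was 4.32 in place of 5.48 for Ighg2c, 4.08 in place of 5.10 for Igkc and 4.16 in place of 5.12 for Jchain, and 5.39 in place of 5.38 for Ighg1.

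Ighg2b and Ighm extended further inward. Ighg2b had 204 CPM at the rim and 13.8 CPM in the interior (14.8-fold, 12.9 to 16.9), with a log2 ratio of 2.99 in place of 3.88 without sector 12. Ighm had 88.2 and 15.9 CPM (5.56-fold, 4.78 to 6.48), the lowest ratio of the 8, although its level had not differed between the whole sections beyond counting error. Mzb1 had 9.68 and 0.647 CPM (15.0-fold, 7.93 to 29.9). Pou2af1 had 12 UMIs at the rim and 0 in the interior, which makes it at least 22.0-fold higher at the rim when 3 UMIs are put in the place of 0, while the exact 95% lower limit is 15.3-fold. In the rIL7 section 6 of the 8 genes had a mean of at least 20 CPM over rim and interior, and all 6 were at least 2-fold higher at the rim, beside 2.47% of 7655 genes. In the control section only Ighm had that mean, and it was not 2-fold higher (24.6 and 24.3 CPM at rim and interior), beside 0.093% of 7524 genes.

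The rim and the interior thus held different contrasts between the sections. At the rim, Igkc was 222-fold higher in the rIL7 section (2727 against 14 UMIs), Ighg2b 60.9-fold (801 against 15 UMIs) and Ighm 3.58-fold (346 against 110 UMIs, 2.88 to 4.48). Ighg2c (938 UMIs) and Ighg1 (588 UMIs) were at 0 in the control rim, which makes them at least 356-fold and at least 223-fold higher with 3 UMIs in the place of 0, with exact 95% lower limits of 289 and 181. In the interior, Igkc was 17.8-fold higher (439 against 21 UMIs) and Ighg2b 9.41-fold (299 against 27). Ighm went the other way there, with 343 UMIs in the rIL7 interior against 447 in the control interior, a ratio of 0.652 (0.565 to 0.753). The near equality of Ighm between whole sections was the sum of a higher rim and a lower interior.

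Step by step, the rIL7 level of the 8 genes was 2345 CPM at step 1, 671 at step 2, 150.1 at step 3 and 112.8 at step 4. It was 75.6 CPM at steps 5 to 7, 43.7 at steps 8 to 11 and 33.0 from step 12 on. The fall was not the same for each gene. Ighg2c was 421 CPM at step 1, 82.5 at step 2 and 8.28 at step 3. Ighg1 was 157 CPM at step 1, 144 at step 2 and 8.28 at step 3, and a pair of spots held 101 and 71 of its 303 UMIs at step 2. Ighg2b was 358, 71.6, 50.2 and 37.4 CPM at steps 1 to 4 and 15.6 CPM at steps 5 to 7. Several interior spots rich in Ighg2b, described below, lay at these steps. From step 12 on, Igkc was still 12.6 CPM and was seen in 17.2% of spots, with at most 7 UMIs in a spot.

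**Figure D2:**
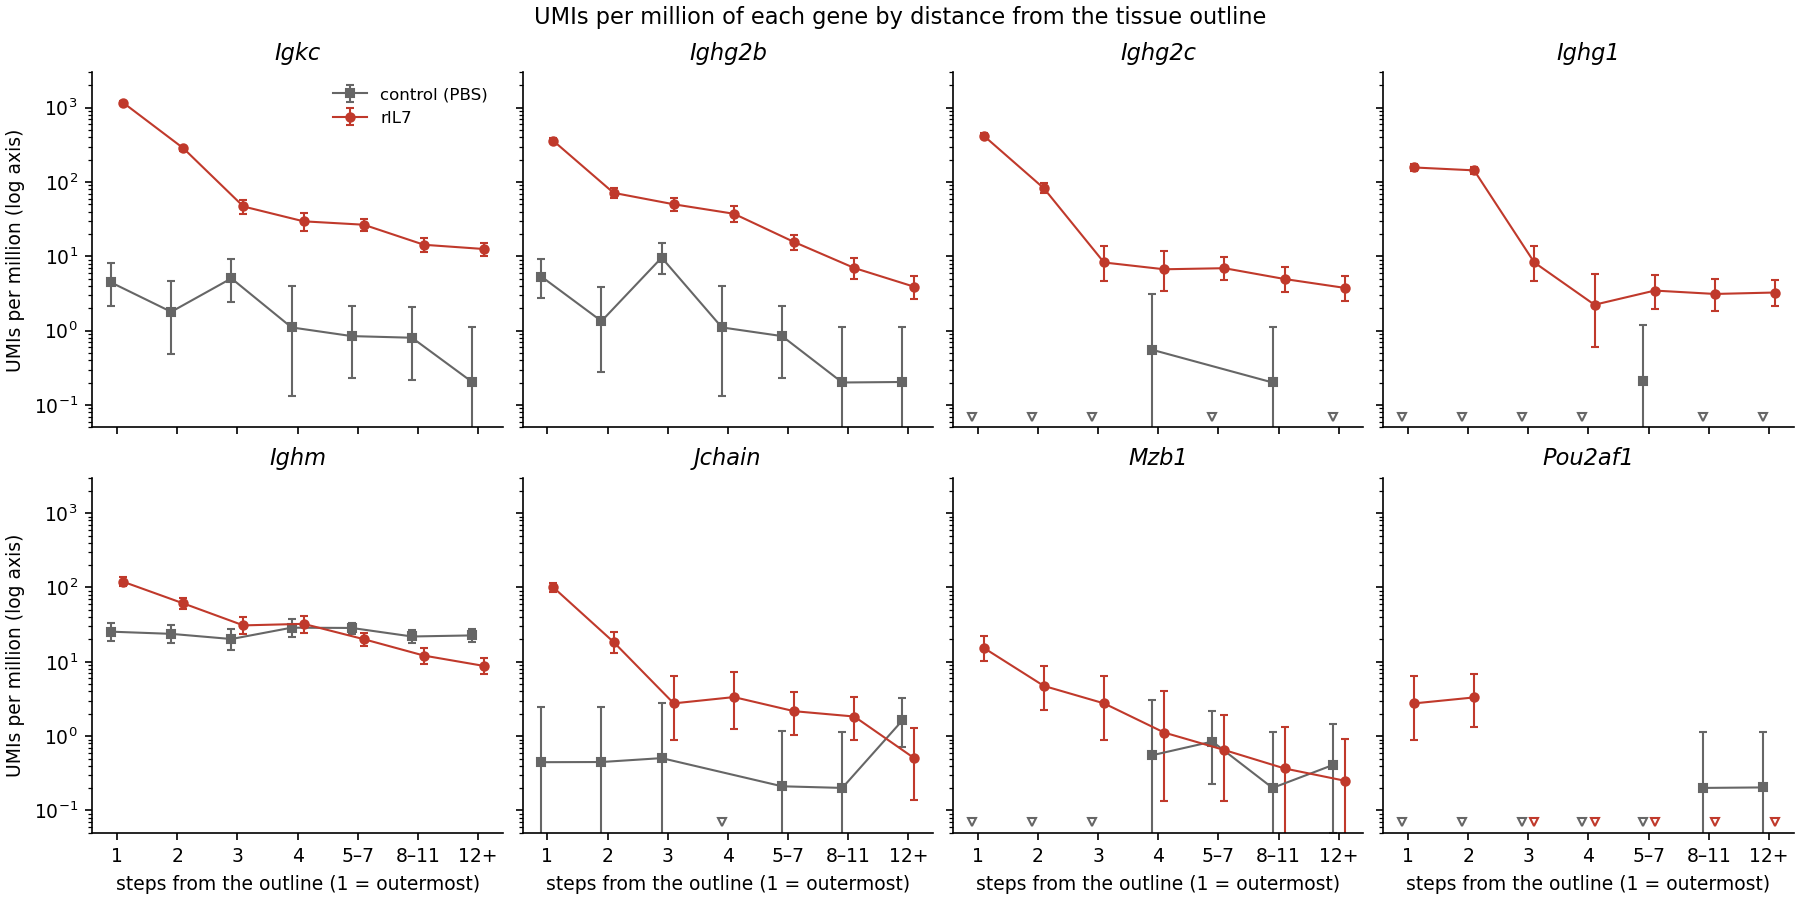
Level of each of the 8 genes (UMIs per 1000000, log axis) against the distance from the outline in steps, in the control section (grey squares) and the rIL7 section (red circles), with 95% Poisson intervals; open triangles at the foot mark rings with 0 UMIs. In the rIL7 section each gene is higher at steps 1 and 2 than at any ring further in, while Ighm is above the flat control line at step 1 (120 against 25.4) and below it from steps 5 to 7 on.

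The rim signal was also uneven around the outline. The rim was cut into 12 sectors of 30 degrees, numbered clockwise from the top of the array. The summed level of the rIL7 sectors ranged from 39.7 CPM in sector 10 to 11140 CPM in sector 12, with a median of 560.5 CPM. Sector 12 (330 to 360 degrees) held 2691 UMIs, or 47.5% of the rim UMIs of the 8 genes, and its neighbour sector 11 held 777. Sectors 2 and 7, at other sides of the tumor, held 591 and 493 UMIs. Sectors 9 and 10 held 20 and 16 UMIs, and their summed level (41.9 and 39.7 CPM) lay within the range of the control sectors. In the control sectors other than sector 7 that sum was mostly Ighm. Without Ighm, rIL7 sectors 9 and 10 held 15 and 14 UMIs. Control sector 7 held 18 without Ighm, and every other control sector at most 3. The control sectors ranged from 9.37 to 163.4 CPM, the highest being sector 7 with 13 Ighg2b and 5 Igkc UMIs.

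The heavy chain gene with the most UMIs changed along the rIL7 rim. Sectors 11 and 12 were led by Ighg2c, with 54.3% of 411 and 45.9% of 1272 heavy chain UMIs. Sectors 2, 3 and 4 were led by Ighg1, with 52.0% of 277, 66.7% of 147 and 54.3% of 70 heavy chain UMIs. Sectors 7 and 8 were led by Ighg2b, with 41.5% of 289 and 67.1% of 146. Of the others, sectors 5, 6 and 10 were led by Ighg1, sector 1 by Ighg2b and sector 9, with 9 heavy chain UMIs, by Ighm. Ighm made up 2.20% of heavy chain UMIs in sector 12 and 3.16% in sector 11, but 37.1% in sector 4 and 30.4% in sector 6. The richest stretch was thus the one with the least IgM transcript for its IgG.

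**Figure D3:**
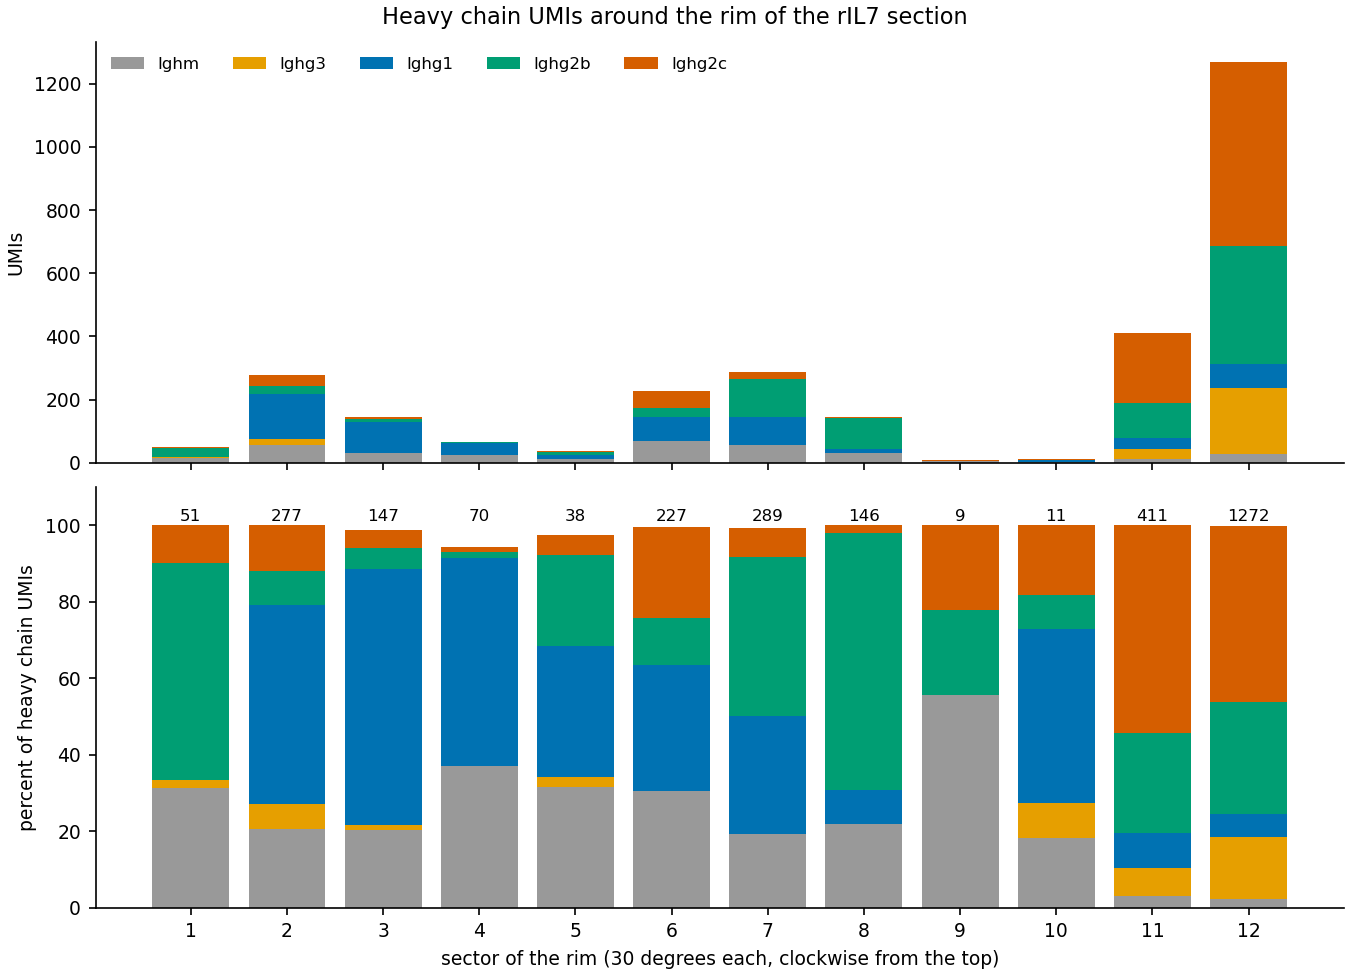
Heavy chain UMIs in the 12 sectors of the rIL7 rim, as stacked UMIs (top) and as a percent of all heavy chain UMIs of the sector (bottom, with their number above each bar; Ighd, Igha and Ighe are left out of the stacks). Sector 12 holds 1272 heavy chain UMIs, led by Ighg2c, sectors 2 to 4 are led by Ighg1 and sectors 7 and 8 by Ighg2b.

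The UMIs were concentrated in few spots. In the rIL7 section the richest 1% of spots (20 spots) held 53.1% of the UMIs of the 8 genes, and the richest 10% held 85.2%. Ranked gene by gene, the richest 1% held 73.4% of Ighg2c, 64.5% of Ighg1, 62.0% of Igkc and 61.0% of Ighg2b. Ighm was spread far more evenly, with 21.6% in its richest 1%. Ighm reached 20 UMIs in a single spot, against 332 for Igkc, 151 for Ighg2c, 109 for Ighg2b and 101 for Ighg1.

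Spots with 5 or more UMIs of the 8 genes numbered 123 in the rIL7 section, of which 100 were at the rim, 14 in the interior and 9 detached. Together these 6.31% of spots held 81.7% of the UMIs. They formed 21 connected patches, 10 of them single spots, and the largest was a run of 30 spots with 3439 UMIs. Only 4 control spots reached 5 UMIs, and no pair of them touched. The highest control spot had 18 Ighg2b and 7 Igkc UMIs at step 3 of sector 7, and the next had 8 Ighg2b and 3 Igkc at step 1 of the same sector. These spots held 26 of the 42 Ighg2b UMIs of the control section, and without the 10 richest spots of each section the log2 ratio of Ighg2b between sections was 5.39 in place of 4.58. The other control spots with 5 UMIs held Ighm alone.

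The richest rIL7 spots showed what the antibody genes can reach in a spot. The highest, at step 1 of sector 12, held 332 Igkc, 151 Ighg2c, 109 Ighg2b and 23 Jchain UMIs, and the 8 genes together made up 7.14% of its 8663 UMIs. Its 4 neighbours held between 4 and 247 UMIs of the 8 genes. The second, also in sector 12, held 310 Igkc, 68 Ighg2c, 42 Ighg2b and 28 Jchain UMIs. It also held 201 UMIs of Ighg3, which is 201 of the 290 in the section. The sixth, at step 2 of sector 2, held 101 Ighg1 and 89 Igkc UMIs with 2 Ighg2b and 0 Ighg2c, so Ighg1 made up 91.8% of its heavy chain UMIs. The ninth, in sector 3, held 71 Ighg1 and 48 Igkc UMIs with 0 of both Ighg2b and Ighg2c.

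Among the 35 rIL7 spots with 20 or more IgG UMIs, 16 were led by Ighg2c, 10 by Ighg2b, 8 by Ighg1 and 1 by Ighg3. The leading isotype had a median share of 62.5% of the IgG UMIs. In 8 spots it reached 80%, of which 5 were led by Ighg2b, 3 by Ighg1 and 0 by Ighg2c. Spots rich in Ighg2c always held some Ighg2b. In the 23 spots with 10 or more Ighg2c UMIs, Ighg2b made up 9.09 to 64.5% of the sum of both genes, with a median of 34.1%. The reverse did not hold, since 10 of the 25 spots with 10 or more Ighg2b UMIs had 0 or 1 of Ighg2c. Reads of 1 gene assigned to the other were not tested for, and this pairing is the one that such assignment would touch.

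**Figure D4:**
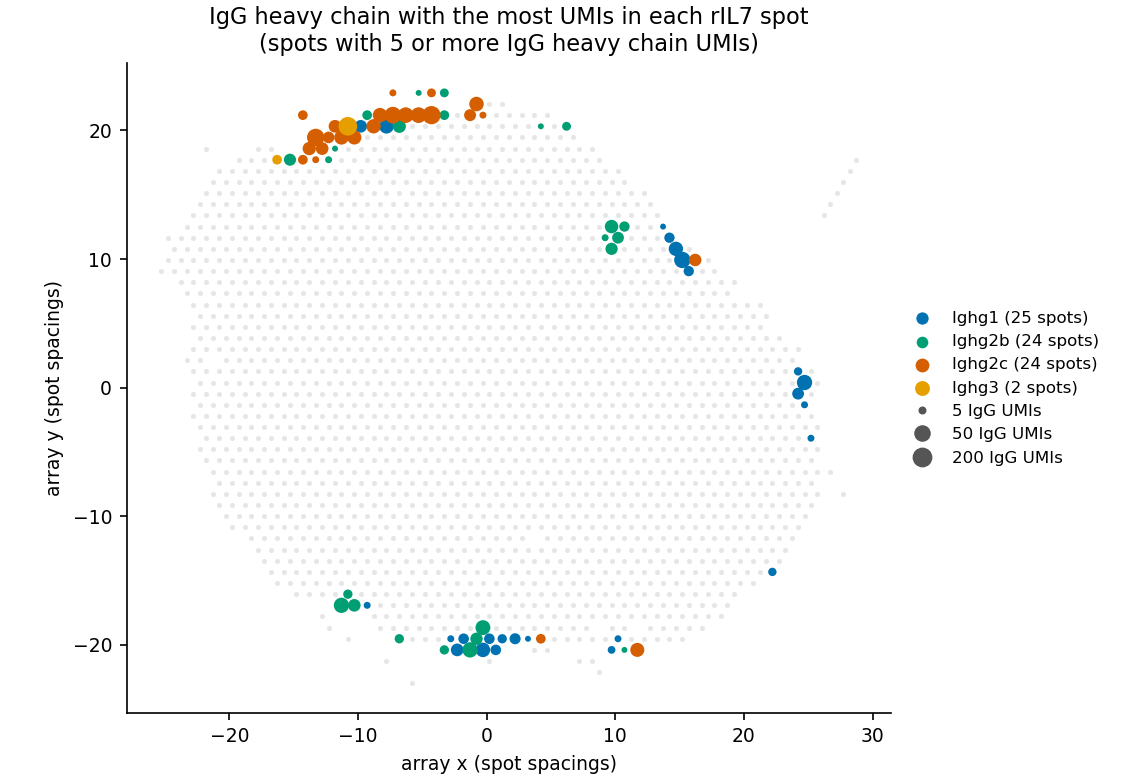
The IgG heavy chain gene with the most UMIs in each of the 75 rIL7 spots with 5 or more IgG UMIs (color), drawn on the array with axes in spot spacings; larger points hold more IgG UMIs and grey points are the remaining spots. Ighg2c (24 spots) lies mainly at the upper left edge, Ighg1 (25 spots) mainly at the right and lower edge, and Ighg2b (24 spots) includes a patch inside the upper right edge.

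Summed over the rIL7 interior, Ighg2b was the main IgG. It made up 57.4% of the 521 IgG UMIs of the rIL7 interior (exact binomial interval 53.0 to 61.7) against 30.9% of the 2589 at the rim (29.2 to 32.8). Ighg2c had 22.3% of the interior (18.8 to 26.1) and 36.2% of the rim IgG UMIs (34.4 to 38.1). The richest interior spot, at step 3 of sector 7, held 59 Ighg2b and 35 Igkc with 1 Ighg2c. The next 4 lay in sector 2 at steps 4 to 6, and held 35, 23, 20 and 13 Ighg2b UMIs with 17, 24, 13 and 4 Igkc UMIs in the same order, and 0 Ighg2c and 0 Ighg1. The rim of that sector was led by Ighg1. These interior spots held a large part of the 299 interior Ighg2b UMIs, and the interval does not cover such clustering. Deeper in, Ighg2b and Ighg2c were closer, with 38 and 27 UMIs at steps 8 to 11 and 31 and 30 from step 12 on. In the control section, 42 of the 46 IgG UMIs were also Ighg2b.

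The heavy chain UMIs of the rIL7 section were 28.8% Ighg2b, 27.7% Ighg2c, 17.9% Ighm, 17.3% Ighg1 and 7.44% Ighg3. Those of the control section were 89.0% Ighm (86.3 to 91.3). Igkc made up 94.7% of the rIL7 light chain UMIs (93.9 to 95.4) and 53.6% of the 69 control light chain UMIs (41.2 to 65.7), where Iglc3 had 20 UMIs and Iglc2 had 12. The lambda constant genes had 35 (Iglc1), 59 (Iglc2) and 86 (Iglc3) UMIs in the rIL7 section. The lambda share was higher inside, with Igkc at 84.9% in the interior and 96.5% at the rim. The lambda genes were thus less bound to the rim than Igkc, with rim over interior ratios from 6.53 (Iglc2) to 7.56 (Iglc3).

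In the rIL7 section there were 1.05 Igkc UMIs per IgG UMI at the rim and 0.843 in the interior, for which no interval was computed. Jchain per Igkc was 0.0810 at the rim and 0.0797 in the interior. In single spots with 20 or more IgG UMIs the proportion of Igkc to IgG ranged from 0.25 to 1.82, with a median of 0.879.

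Variable genes, which name the antigen-binding part of an antibody, were nearly unseen in these 3′ libraries. Of 348 listed variable genes, 7 were detected in the rIL7 section, with 63 UMIs, and 0 in the control section. The lambda gene Iglv1 had 52 of these UMIs in 23 spots, 45 of them at the rim and at most 10 in a spot. Igkv18-36 and Iglv3 had 3 UMIs each, Igkv10-96 had 2, and Igkv19-93, Igkv7-33 and Iglv2 had 1 each. No clone can be followed with these counts.

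Because depth differed between spots, co-occurrence was described on spots thinned to 5900 UMIs, with the median over 20 draws. This left out 217 control and 81 rIL7 spots. At this depth 14.4% of control spots and 31.2% of rIL7 spots held a UMI of the 8 genes (22.3% and 51.4% unthinned). Without Ighm the shares were 1.75% and 23.3% (2.88% and 39.8% unthinned). Ighm itself was seen in 12.9% of control and 13.2% of rIL7 spots, and Igkc in 0.649% and 13.9%. In the rIL7 rim the share for the 8 genes was 58.6%, and in the interior 25.9%.

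In the rIL7 rim, spots with more of 1 antibody gene tended to hold more of the others. Spearman's rho over 280 rim spots was 0.646 for Igkc with the summed IgG genes, 0.595 for Igkc with Ighg1, 0.569 for Igkc with Jchain, 0.528 for Igkc with Ighg2b and 0.397 for Igkc with Ighm. Over the 1578 interior spots the same rho was 0.0662 for Igkc with the IgG genes, 0.0783 with Jchain and 0.0117 with Ighm. These values describe spots of 1 library that share its depth and its patches, and in the sparse interior counts a low rho is not read as independence. The summed genes hardly followed depth itself, with rho of -0.008 with total UMIs over all rIL7 spots and -0.09 at the rim.

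The rarest of the 8 genes mostly lay in spots that held others of the 8. All 13 spots with Pou2af1 also held Igkc, against 24.3% of all rIL7 spots, and 12 of them held Ighm, against 23.3%. Of these spots 11 were at the rim, where 48.5% of all spots held Igkc and 45.2% held Ighm. Of the 96 spots with Jchain, 77.1% held Igkc, and of the 40 spots with Mzb1, 65.0% held Igkc and 72.5% held Ighm. Ighg2b shared 62 spots with Ighg2c, which is 25.6% of the Ighg2b spots and 32.1% of the Ighg2c spots. These are unthinned shares, and a rich spot counts under each of its genes.

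Beyond the immunoglobulins, 7714 genes with at least 500 rIL7 UMIs were ranked by their rho with the 8 summed genes over the 1869 thinned rIL7 spots. The median was -0.002 and the 99th percentile 0.135. The 10 highest were Tmsb4x (0.273), an actin-binding peptide, the class II antigen presentation genes H2-Ab1 (0.271), Cd74 (0.270), H2-Eb1 (0.264) and H2-Aa (0.250), Cpxm1 (0.267), the complement genes C3 (0.234) and C1qa (0.220), the secreted protease inhibitor Slpi (0.231) and the chemokine Cxcl12 (0.229). Within the rim alone the 5 highest were Slpi (0.520), C3 (0.498), Tmsb4x (0.494), H2-Eb1 (0.464) and H2-Ab1 (0.464). These 10 genes were themselves higher at the rim, from 1.99-fold for C1qa to 18.1-fold for Cpxm1, so rho over all spots includes their shared rim position.

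The regulators and surface genes of plasma cells differed far less than the antibody genes. Of 10 such genes, all with at least 20 UMIs over both sections, 3 were at least 2-fold higher in the rIL7 section and 0 lower, with a median log2 ratio of 0.30, beside 4.04% of 14313 genes higher and a median of -0.002. The 3 were Irf4, a transcription factor of plasma cells and activated T cells (25 against 60 UMIs), Slamf7 (20 against 54) and Cd38 (225 against 603). Xbp1, which drives the secretory program, had 83.2 and 83.8 CPM, and Sdc1, the plasma cell surface proteoglycan CD138, had 88.6 and 108 CPM. Tnfrsf17, the receptor BCMA, had 45 and 56 UMIs. Xbp1 and Sdc1 are also expressed by epithelial tumor cells. The defining transcription factor Prdm1 had 155 and 253 UMIs. Within the rIL7 section, 4 of the 10 were at least 2-fold higher at the rim and 0 lower, beside 8.66% of all genes higher. These were Irf4 (3.4-fold), Slamf7 (2.8-fold), Cd38 (2.8-fold) and Tnfrsf13b (2.1-fold).

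The secretory machinery that plasma cells expand was at similar levels in both sections. None of its 13 genes with 20 UMIs was 2-fold higher or lower, beside 4.04% of all genes higher, and the median log2 ratio was -0.04. Hspa5, the main chaperone of the endoplasmic reticulum, had 534 and 538 CPM, and Derl3, with 5 and 13 UMIs, was the gene of the list below 20. At the rIL7 rim 0 of the 13 were 2-fold higher or lower, beside 8.66% of all genes higher. Their median log2 ratio of rim to interior was 0.06. The ratios ran from 0.856-fold (Dnajb9) to 1.57-fold (Sdf2l1, 1.28 to 1.92). Derl3 had 7 UMIs at the rim and 6 in the interior (6.43-fold, 1.85 to 23.2). The list summed to 2370 CPM in the control section, where the 8 genes without Ighm had 4.575. It is therefore not read as a measure of plasma cells.

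B cell genes were low in both sections. Of 17 listed genes 8 had at least 20 UMIs, 2 of them at least 2-fold higher in the rIL7 section, beside 4.04% of all genes. These were Cd79a, a signaling chain of the B cell receptor (9 against 29 UMIs), and Cd22 (64 against 209 UMIs), which other leukocytes can also express. Cd79b, the partner chain of Cd79a, had 59 against 45 UMIs (0.680-fold, 0.451 to 1.02) and Bank1 had 12 against 13. Ms4a1 (CD20) had 3 and 2 UMIs and Pax5 had 5 and 7, so these defining genes of mature B cells were near 0 in each section. Within the rIL7 section, 7 of the 8 were at least 2-fold higher at the rim, with a median log2 ratio of 1.90, beside 8.66% of all genes and a median of -0.036. The exception was Spib, at 0.571-fold (0.417 to 0.767). Cd79a had 12 UMIs at the rim and 16 in the interior, or 3.06 and 0.740 CPM, and Cd79b had 5.86 and 0.971 CPM.

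The precursor and germinal center lists were not higher in the rIL7 section as lists. Rag1 and Rag2, which cut the antibody genes in precursors, were at 0 in both sections. Vpreb1, the surrogate light chain, had 106 control and 53 rIL7 UMIs, a ratio of 0.446 (0.315 to 0.626), with 82 of the control UMIs in the interior. Dntt, the polymerase that adds bases at the joints of rearranged genes, had 9 and 20 UMIs, a ratio of 1.98 (0.863 to 4.94), with 10 of the 20 at the rim. Of the 3 germinal center genes with 20 UMIs, 0 were 2-fold higher in the rIL7 section and 0 at its rim. S1pr2 had 1813 and 1810 UMIs, Bcl6 had 652 and 794 and Mef2b had 27 and 44.

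Chemokines of lymphoid tissue were among the genes that shared the rim. Of 6 lymphoid tissue genes with 20 UMIs, 4 were at least 2-fold higher in the rIL7 section, beside 4.04% of all genes, and all 6 at its rim, beside 8.66%. Cxcl13, which attracts B cells, had 13 and 83 UMIs (5.70-fold, 3.15 to 11.1), with 59 at the rIL7 rim and 22 in the interior. Ccl19, which attracts T cells and dendritic cells through Ccr7, had 3 and 34 UMIs (10.1-fold, 3.18 to 51.4), with 31 at the rim. Ccr7 had 60 and 158 UMIs and Lta 19 and 43. Ccl21a went the other way, with 19 control UMIs and 0 in the rIL7 section, 12 of the 19 at the control rim.

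Of 6 listed factors that keep B cells and plasma cells alive, 4 had at least 20 UMIs. Of these 1 was at least 2-fold higher in the rIL7 section, beside 4.04% of all genes. At its rim 1 of the 4 was at least 2-fold higher, beside 8.66%. In both comparisons this was Cxcl12. It had 90 and 507 UMIs (5.03-fold, 4.01 to 6.36), and 83.3 CPM at the rIL7 rim against 6.80 in the interior. Tnfsf13b (BAFF) had 133 and 124 UMIs, Tnfsf13 (APRIL) had 475 and 577, and Il6 had 90 and 189 (1.87-fold, 1.45 to 2.435). The T cell help genes Cd40lg and Il21 were at 0 and 0 and at 2 and 2 UMIs. None of 7 measured IgG receptor and transport genes was 2-fold different between the sections. At the rIL7 rim 1 of the 7 was at least 2-fold higher, beside 8.66% of all genes. This was Fcgr4, an activating receptor for IgG2 on myeloid cells, with 161.6 CPM at the rim and 45.7 in the interior. The next highest, Fcgr1, was 1.685-fold higher at the rim.

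The 100 rIL7 rim spots with 5 or more UMIs of the 8 genes, chosen by these counts, were then set beside the other 230 rim spots. Their median depth was 10512 against 11606 UMIs, and 62 of the 100 were at step 1, against 110 of the 230. Lymphoid tissue genes were at 238 against 68.9 CPM (3.46-fold, 2.86 to 4.19) and B cell genes at 125 against 57.3 CPM (2.19-fold, 1.73 to 2.76). Over the whole rIL7 rim, the lymphoid tissue sum was mostly Ltb (262 UMIs). The B cell sum was mostly Blnk, Cd22 and Spib (89, 83 and 49 UMIs), with Ms4a1 and Pax5 at 0. T cell genes were at 1042 against 504 CPM (2.07-fold, 1.91 to 2.24) and class II genes at 12420 against 6270 CPM (1.98-fold, 1.94 to 2.03). Macrophage genes were 1.67-fold higher (1.63 to 1.70) and dendritic cell genes 1.93-fold (1.72 to 2.17). The secretory list (1.03-fold, 0.983 to 1.08) and the regulator list (1.08-fold, 0.957 to 1.22) were near equal in both sets. The regulator sum was mostly Sdc1 and Xbp1, with 476 and 339 UMIs over the whole rIL7 rim, so it says little of its rarer genes. In the secretory sum Derl3 had 7 UMIs there, against 2338 of Hsp90b1.

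Genes of the tissue around a tumor differed between these spots too. Endothelial genes were at 293 against 84.0 CPM (3.49-fold, 2.94 to 4.15), adipocyte list genes at 393 against 149 CPM (2.64-fold, 2.30 to 3.03) and fibroblast genes 1.23-fold higher (1.18 to 1.28). CT26 tumor genes were 0.761-fold (0.697 to 0.830). The adipocyte list was mostly Fabp4, with 186 CPM at the rIL7 rim (730 UMIs) and 110 CPM in the interior. Adipoq had 6, Plin1 had 4 and Cidec had 17 rim UMIs. Over the whole sections, Adipoq had 2 control and 23 rIL7 UMIs, Cfd 15 and 245 and Cidec 4 and 34. In the main piece of the rIL7 section, Adipoq had 6 rim and 4 interior UMIs, Cfd 89 and 32 and Cidec 17 and 8. The rest of their rIL7 UMIs lay in the detached spots. Of the keratinocyte genes with 20 UMIs 3 of 4, and of the muscle genes 5 of 5, were lower by 2-fold or more in the rIL7 section. This is beside 299 of 14313 genes in all. Krt5 had 196 control and 0 rIL7 UMIs and Acta1 610 and 23. Of the control UMIs, 165 of Krt5 were at the rim and 581 of Acta1 in the interior. Markers of adjacent tissue thus differed between the sections, and Krt5 also between their rims. Their part in the antibody values, also in the ratios between the rims, was not tested.

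**Figure D5:**
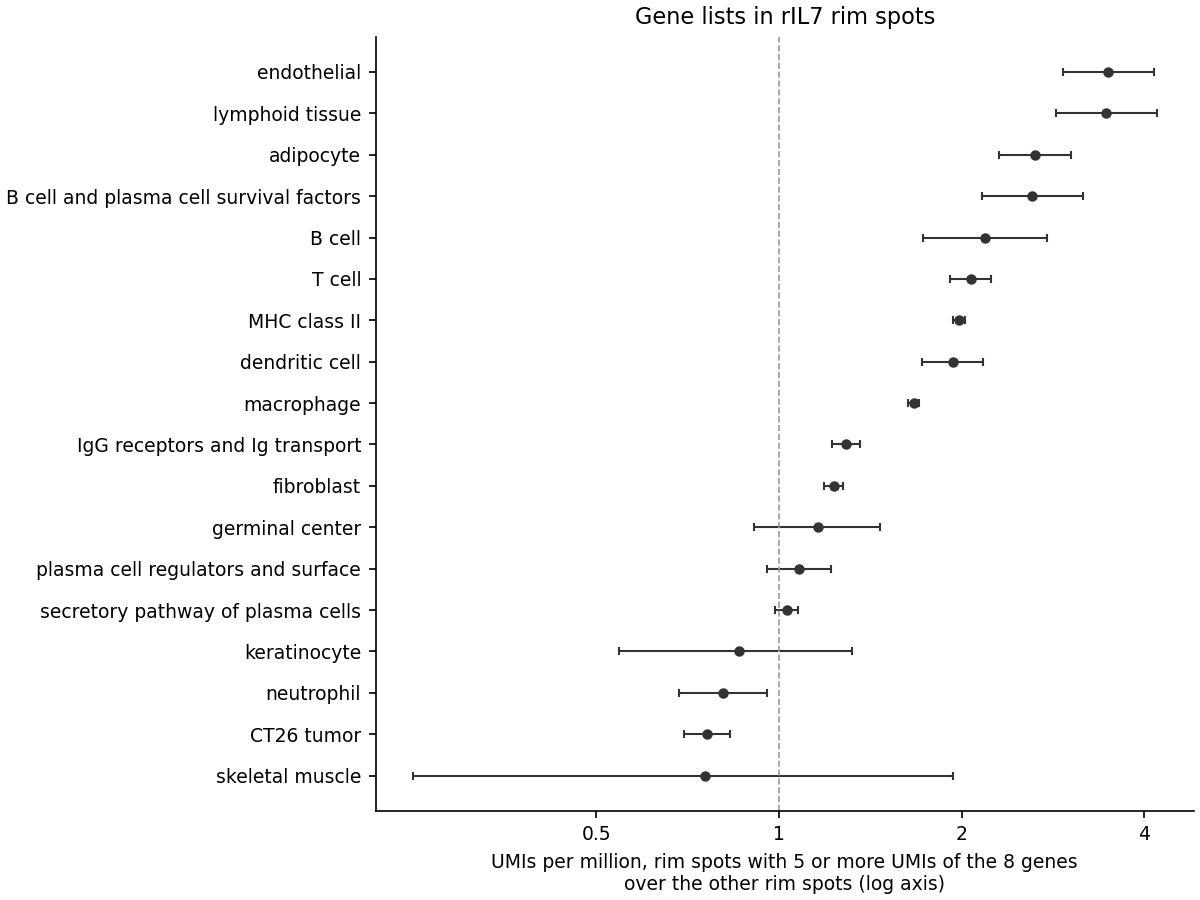
Level of each gene list in the 100 rIL7 rim spots with 5 or more UMIs of the 8 genes over that in the other 230 rim spots (ratio of UMIs per 1000000, log axis, 95% counting intervals; the 8 genes and the other immunoglobulin genes are left out). Endothelial and lymphoid tissue genes are highest at 3.49 and 3.46, secretory genes lie at 1.03 and CT26 tumor genes at 0.761.

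The T cell genes were higher between the sections as well, with 11 of 12 at least 2-fold higher in the rIL7 section beside 4.04% of all genes (Cd4 41 against 182 UMIs, Cd8b1 36 against 196). Over the thinned rIL7 spots their summed level had a rho of 0.202 with the 8 antibody genes, 0.425 within the rim and 0.045 in the interior. For class II genes it was 0.290, 0.484 and 0.111, for macrophage genes 0.239, 0.486 and 0.0442 and for B cell genes 0.0852, 0.266 and -0.00809. CT26 tumor genes had -0.136 over all spots.

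The slides use the same set of barcodes, and 1701 barcodes were in tissue in both sections, 76.7% of the control spots and 87.2% of the rIL7 spots. Of the 123 barcodes with 5 or more UMIs of the 8 genes in the rIL7 section, 74 were also control spots. They held 3.46% of the control UMIs of all genes and 2.11% of the control UMIs of the 8 genes, with 0 of the 46 IgG UMIs and 1 of the 37 Igkc UMIs. The few control UMIs therefore did not gather at the barcodes that were rich in the other section.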

How the data were processed

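Per the labels, 2 Visium libraries (Spatial 3′ v1) were made from OCT-embedded tumor cryosections, 1 control and 1 rIL7. The authors counted UMIs with Space Ranger 1.1.0 against mm10 (GRCm38), and deposited the counts unnormalized, 1 sparse matrix per section, with barcodes, gene names and in-tissue array positions. Image files and scale factors were not used here.

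Spots under tissue were kept with under 10% mitochondrial UMIs and more than 200 genes, which removed 2 control spots and 1 rIL7 spot. UMIs were summed by section, region or spot and divided by total UMIs (CPM, per 1000000). As each group has 1 section, the comparisons carry no test. Intervals are 95% exact Poisson for UMIs, exact binomial (Clopper-Pearson) for shares and for ratios of sums, and cover counting error only. A count of 0 was set to 3 UMIs for a fold bound. The size rule asks for a mean of 20 CPM and a 2-fold ratio. A list counts its genes with at least 20 UMIs over both sections, with a count of 0 set to 3. Spots were thinned to 5900 UMIs without replacement, 20 times, a number set after the data were seen because rho moved between single draws. The genes and gene lists were chosen with earlier results of these data known. The text names the 8 genes, genes of a reported list, the 10 genes (at least 500 rIL7 UMIs, no immunoglobulin) with the highest rho and the 5 highest at the rim, and the 5 variable genes with the most UMIs, to which 2 tied for the lowest place were added after their values were seen. Gene positions are from the RefSeq annotation of GRCm38. Some genes of the lists are not reported here. The size rule was tested on simulated counts, the thinning on the rIL7 counts and the outline distance on a hexagon of known distances. Python 3.11.15 with numpy 2.4.6, scipy 1.17.1 and pandas 2.3.3 was used. For alternative scalings, edgeR 4.0.16 (TMM) and DESeq2 1.42.0 (size factors) were used in R 4.3.3. Other alternatives were the spot filter, the rim width, spot weights, leaving out rich spots and the thinning depth.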

Additional observations from a re-analysis of the deposited data

How the results depend on the processing

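No paired analysis was possible because each group has 1 section, and no replicate could be left out. The log2 ratio rIL7 over control of the 8 summed genes was 3.26. It was 1.12 over interior spots, 5.52 over rim spots, 3.69 with each spot weighted equally and 2.70 without the 10 richest spots of each section, and it stayed within its counting interval of 3.15 to 3.38 without the spot filter, with over 1000 genes per spot, in the largest piece and under the other totals. TMM and median-of-ratios scaling moved all genes by 0.01. Without Ighm, a sum added after the data were seen, it was 5.77, with 3.53 over the interior and 7.61 over the rim. For Ighm alone it was 0.16 and reversed to -0.62 over the interior. Over the single genes, 64 alternatives lay within the counting interval, 14 outside it and 1 reversed, and for the rim over interior ratio 25 lay within it and 22 outside. The log2 ratio rim over interior in the rIL7 section was 4.56, with 4.35 for a rim of 1 step, 4.29 for 3 steps, 3.63 without the 10 richest spots, 4.90 with equal weights and 3.73 without sector 12 (added after the data were seen). Without Ighm it was 4.90, with 4.54, 4.65, 3.89, 5.27 and 4.01 in the same order. For Ighg1 alone it was 3.29 for a rim of 1 step in place of 5.38. In the control section it was 0.16, and 0.74 with equal weights. Without Ighm it was 0.82, with 1.89 for a rim of 3 steps and 2.25 with equal weights. With a rim of 1 step, the 303 Ighg1 UMIs of step 2 in the rIL7 section count as interior. With a rim of 3 steps, the highest control spot (18 Ighg2b and 7 Igkc UMIs, at step 3) counts as rim. The cause of the other shifts was not tested.

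The share of rIL7 spots with a UMI was 31.2%, or 20.4% at 3000 UMIs and 51.4% unthinned. For control spots it was 14.4%, 7.56% and 22.3%. The Spearman correlation of Igkc with the IgG genes was 0.314, with 0.395 at 3000 UMIs, 0.646 at the rim and 0.0662 in the interior. For T cell genes it was 0.202, 0.425 at the rim and 0.045 in the interior, for B cell genes 0.0852, 0.266 and -0.00809, and for class II genes 0.290, 0.484 and 0.111. Ighg2c had 27.7% of heavy chain UMIs, 31.8% at the rim, 13.1% in the interior and 21.5% without the 10 richest spots. Igkc had 94.7% of light chain UMIs, with 96.5%, 84.9% and 91.3% in the same order. The wide intervals of Mzb1, Pou2af1 and the control IgG genes follow from their few UMIs.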

Other observations

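In the control section the 558 Ighm UMIs lay in 446 spots, 358 of them with a single UMI, and 2 spots reached 5. Their level ranged over the control quadrants from 17.2 to 31.4 CPM. Vpreb1 (106 UMIs) and Ighm were thus both present in a section with 3 Ms4a1 UMIs. The precursor list, mostly Vpreb1, hardly followed Ighm over the thinned control spots. Its rho with Ighm was 0.0039, with 0.0656 at the rim and -0.0091 in the interior. With such sparse counts a low rho is not read as independence. In the rIL7 section Ighm was seen in 454 spots, of which 168 also held Igkc.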
